A study of Mus musculus with 32 samples.

Results

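The kidneys of male and female mice were compared by RNA sequencing 2 days after a single injection of cisplatin, a platinum drug that damages the proximal tubule. The comparison was restricted to genes on the autosomes (chromosomes 1 to 19), so that differences set directly by the number of X or Y copies do not enter. It used 8 of the 32 libraries of a time course, 4 from males and 4 from females, each from the kidney of 1 wild-type mouse of the inbred strain C57BL/6, aged 6 to 8 weeks, given 20 mg/kg cisplatin into the peritoneum. Mice taken at Day 0 and at Day 3, 4 of each sex, were compared the same way and share no mouse with Day 2. The labels give no treatment for the Day 0 males and cisplatin for the Day 0 females, while the study describes Day 0 mice as healthy. All groups were wild type, and no gonadectomised or hormone-treated mice were among them. Of 54532 genes in the count table, 50225 were autosomal, and 16064 of these had enough reads to be tested.

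In the mouse, the kidney is among the organs that differ most between the sexes. The cells of the proximal tubule carry the androgen receptor, and testosterone raises the transcription of a set of transporters and drug-metabolising enzymes there, while another set is more abundant in females. These genes handle organic anions, amino acids, steroids and fatty acids. Whether and where this pattern is present shortly after cisplatin is the question that the Day 2 comparison addresses.

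A gene was called differentially expressed when 2 conditions held in the edgeR quasi-likelihood test: the adjusted p (Benjamini-Hochberg) was under 0.05, and the log2 fold change was beyond 1.5 in either direction. By this rule 125 autosomal genes differed between the sexes (0.778% of those tested). Of these, 76 were higher in males (0.473%) and 49 were higher in females (0.305%). Protein-coding genes made up 102 of the 125. With the adjusted p alone, 234 genes passed (1.46%), 140 of them higher in males and 94 higher in females. The male and female values did not overlap for any of the 125 genes, which was the case for 9.23% of all autosomal genes tested. Non-overlap of single called genes, given below, therefore describes every gene called. Leaving out 1 mouse gave from 72 to 246 genes, with 246 without male mouse 4, 83 without female mouse 2 and 72 without female mouse 3. The median log2 fold change over all tested autosomal genes was -0.021, and 47.4% of them lay above 0.

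Depth overlapped between the sexes, with total counts between 19876957 and 29980960 per library. The sex labels held: the X-linked Xist, which silences an X chromosome in female cells, had 0 to 3 counts in males and 3148 to 14054 in females, and 4 Y-linked genes summed to 1367 to 3195 counts in males and 0 in females. All 10 markers of kidney cell types, among them the endocytic receptor Lrp2, had more than 3 counts in every library. Male mouse 4 stood apart from the other males. Its level of Havcr1, the injury marker KIM-1, was 75.4 CPM (counts scaled to library size), against 1.55 to 4.83 in the other males (females 0.955 to 10.6). All 16 leukocyte markers were found in males and 15 in females, where Ly6g was at 0, and they summed to 283 CPM in male mouse 4, 93.6 to 117 in the other males and 73.6 to 99.1 in females. Female mouse 1 stood apart too, with 4.87% of its counts from mitochondrial genes against 8.9% to 12.3% in the other females. Its Xist was at 125 CPM against 342 to 400 CPM, and its S1 and S2 proximal tubule markers summed to 13200 CPM against 4990 to 9300 CPM. Without female mouse 1, 161 genes were called.

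**Figure D1:**
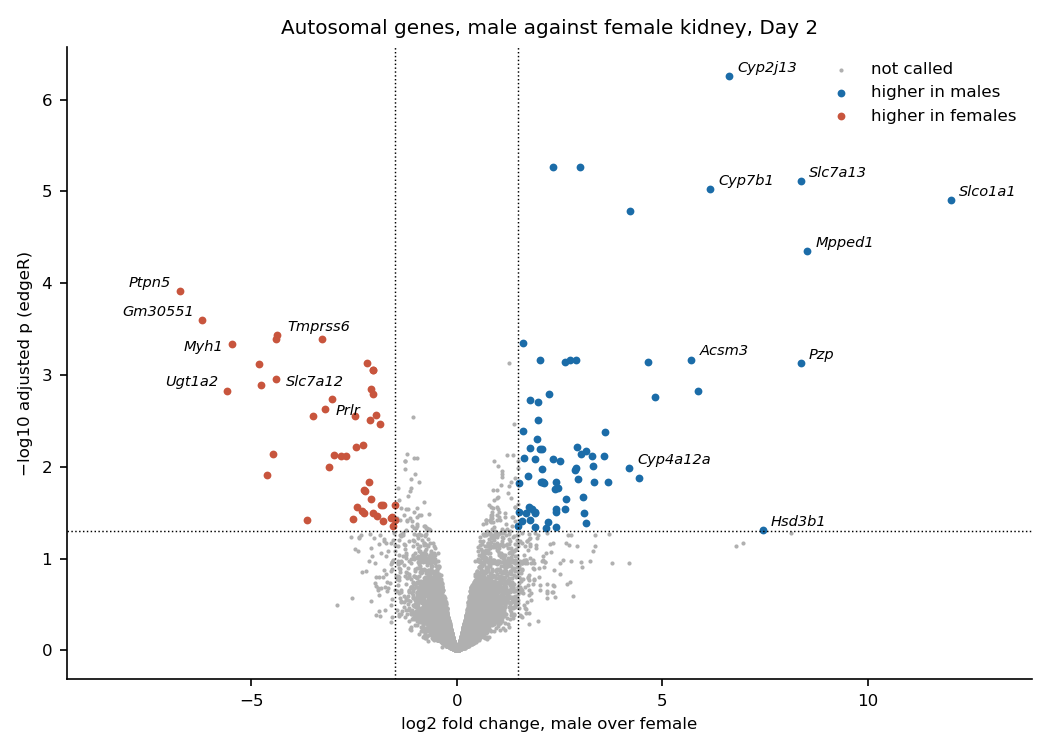
Each point is 1 autosomal gene, with the log2 fold change of male over female on the x axis and −log10 of the edgeR adjusted p on the y axis. Dotted lines mark the thresholds, and the 76 genes higher in males reach further from 0 (Slco1a1, 12.03) than the 49 higher in females (Ptpn5, -6.75).

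The largest difference among the genes higher in males was that of Slco1a1, followed by Mpped1, Slc7a13 and Pzp. Slco1a1, which encodes an organic anion transporter of the proximal tubule (chromosome 6, 141907282 to 141946962, GRCm38), was at 216, 142, 252 and 57.4 CPM in the 4 males. In females it was at 0.0396, 0.0569, 0.0343 and 0 CPM, a total of 4 counts. The ratio of the means was 4690, with a 95% counting interval of 1830 to 17200 (log2 fold change 12.03 ± 0.697 SE, adjusted p = 1.25e-05). Even the lowest male lay far above the highest female.

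Slc7a13 encodes an amino acid transporter of the S3 segment, the last part of the proximal tubule. It was at 568, 398, 530 and 172 CPM in males and at 1.35, 1.11, 1.10 and 1.56 CPM in females (log2 fold change 8.37 ± 0.447 SE, adjusted p = 7.71e-06). The 4 females were near the same low level, and male mouse 4 was the lowest male. Cyp7b1, the oxysterol hydroxylase that turns cholesterol derivatives toward bile acids, was at 225, 187, 178 and 80.0 CPM in males and 2.18, 2.25, 2.71 and 2.34 CPM in females (log2 fold change 6.16, adjusted p = 9.43e-06). Cyp2j13, a cytochrome P450 monooxygenase, had the smallest adjusted p of all autosomal genes (5.5e-07). Its values were 211, 239, 267 and 205 CPM in males and 2.61, 2.76, 2.50 and 1.52 CPM in females, a 98.3-fold difference. Unlike Slco1a1 and Slc7a13, Cyp2j13 varied little among the males, and male mouse 4 was level with the others.

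Acsm3, which activates medium-chain fatty acids by linking them to coenzyme A, was at 565, 185, 287 and 97.5 CPM in males and at 3.40, 5.12, 6.17 and 7.29 CPM in females (52.1-fold, adjusted p = 0.000679). Acsm2, of the same family and nearby on chromosome 7, had means of 2600 ± 1090 CPM in males and 713 ± 216 CPM in females (SD, n = 4 each, 3.69-fold, adjusted p = 0.0310). The call for Acsm2 was lost in 5 of the 8 fits that left out 1 mouse, whereas that for Acsm3 was lost in none. Pzp, a broad protease inhibitor that circulates in blood, was at 43.0, 18.9, 32.1 and 4.78 CPM in males and had 8 counts over the 4 females (ratio of means 348, counting interval 176 to 806). Mpped1, a predicted metallophosphoesterase, was at 5.28, 4.96, 6.87 and 2.94 CPM in males, and a single count was found in the 4 females (ratio 564, counting interval 101 to 22300). Apoh, a plasma glycoprotein that binds phospholipids, was at 2.31, 5.77, 3.92 and 1.45 CPM in males, with 6 counts in females (ratio 63.1, counting interval 29.0 to 172). Its call was lost with 1 fit over 8 groups. Pzp and Apoh are made mainly by the liver, and hepatocyte markers, of which all 12 were found in males and 11 in females (Cps1 at 0), summed to 84.6 to 198 CPM in males and 92.9 to 128 CPM in females. Their part in the result was not tested. In whole kidney, fewer cells of a type and less RNA per cell cannot be told apart for any of these genes.

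Among the genes called, the highest level per gene length was that of Cyp4b1, a monooxygenase of fatty acids and xenobiotics, in males. It reached 756 ± 150 FPKM in males and 150 ± 80.6 FPKM in females (SD, n = 4 each). In females the called gene Aadat lay above it, at 347 ± 97.3 FPKM. In CPM, Cyp4b1 was at 2370, 2080, 2330 and 1510 in males and at 761, 339, 309 and 267 in females (5.02-fold, adjusted p = 0.00825). Cyp2e1, the ethanol-inducible monooxygenase, followed with 1530, 899, 1100 and 490 CPM in males and 272, 111, 158 and 181 CPM in females (5.65-fold, adjusted p = 0.00868, lost without female mouse 3). Ces1f, a carboxylesterase, was at 691, 675, 854 and 474 CPM in males and at 124, 74.1, 94.6 and 146 CPM in females (6.20-fold, adjusted p = 0.000715). Atp11a, a phospholipid flippase, was at 1340, 875, 1250 and 781 CPM in males and at 293, 332, 311 and 451 CPM in females (3.09-fold, adjusted p = 0.00794, lost without male mouse 1 and with a replicate block). These genes were abundant in both sexes, and the lowest male lay above the highest female for each.

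The genes higher in females were led by Ptpn5, a tyrosine phosphatase best known from neurons. It was at 4.12, 6.37, 10.5 and 7.55 CPM in females and had 6 counts over the 4 males (ratio of means 116, counting interval 53.5 to 317, adjusted p = 0.000121). Ugt1a2, which glucuronidates drugs and endogenous compounds, was at 269, 115, 89.8 and 308 CPM in females and at 0.909, 7.01, 3.72 and 4.30 CPM in males (48.6-fold, adjusted p = 0.00148). The call for Ugt1a2 was lost with 1 fit over 8 groups. Abcc3, the efflux pump MRP3 that exports glucuronides and other organic anions, was at 216, 116, 112 and 142 CPM in females and at 4.90, 4.07, 5.22 and 13.2 CPM in males (21.3-fold, adjusted p = 0.000410). For both the conjugating enzyme and the pump for conjugates, the sexes were far from overlapping.

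Slc7a12, an amino acid transporter related to Slc7a13, went the other way from it. It was at 40.9, 88.1, 74.7 and 133 CPM in females and at 1.92, 4.46, 2.37 and 7.02 CPM in males (log2 fold change -4.41 ± 0.475 SE, adjusted p = 0.00112). Prlr, the receptor for prolactin, was at 51.1, 47.4, 51.6 and 106 CPM in females and at 3.46, 11, 7.35 and 5.53 CPM in males (9.27-fold, adjusted p = 0.00235). Female mouse 4 had the most Prlr and the other females were close together. Slc17a2, a phosphate and organic anion transporter, was at 5.70, 14.6, 14.8 and 15.8 CPM in females and at 0.839, 0.232, 0.0967 and 0.614 CPM in males (27.3-fold, adjusted p = 0.00128). Tmprss6, a membrane protease of iron regulation, was at 2.97, 2.30, 2.47 and 3.65 CPM in females and at 0.210, 0.155, 0.0967 and 0.0439 CPM in males (20.7-fold, adjusted p = 0.000369). Atp13a4, a P-type transport ATPase, had 10 counts over the males and was at 2.10, 2.45, 2.57 and 5.21 CPM in females (ratio of means 30.2, counting interval 16.4 to 62.9). As with all 125 genes called, none of these overlapped between the sexes. Slc17a2, Tmprss6 and Atp13a4 were under 1 CPM in every male.

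The most abundant genes higher in females were metabolic enzymes. Aadat, a kynurenine aminotransferase that also breaks down lysine, was at 630, 919, 935 and 1250 CPM in females and at 270, 275, 274 and 194 CPM in males (3.66-fold, adjusted p = 0.00338). The call for Aadat was lost with 1 fit over 8 groups. Cbr1, a carbonyl reductase, was at 896, 648, 728 and 633 CPM in females and at 42.4, 104, 69.2 and 283 CPM in males (5.81-fold, adjusted p = 0.0371). For Cbr1 the spread lay among the males, where mouse 4 was closest to the females, and the call was lost in 7 of the 8 fits that left out 1 mouse. Myh1, a myosin heavy chain of fast skeletal muscle, was at 2.18, 3.38, 2.64 and 5.55 CPM in females and had 7 counts over the 4 males (ratio of means 48.1, counting interval 23.3 to 120). It was the only 1 of 6 tested muscle markers that was called, and the muscle markers (18 of 20 found in males, 17 in females, Myh4 and Tnnc2 at 0 in both) summed to 21.9 to 31.8 CPM in males and 25.8 to 43.6 CPM in females. Their part in the result was not tested.

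Of the remaining large differences, Gm6614 was at 1.19, 5.50, 5.51 and 2.81 CPM in males and 0 to 0.435 CPM in females (21.7-fold, adjusted p = 0.0133), and its call was lost without female mouse 2 and without female mouse 3. Rdh19, a retinol dehydrogenase, was at 5.15, 4.81, 3.63 and 3.17 CPM in females and 0.105 to 0.702 CPM in males (11.2-fold, adjusted p = 0.00283), and Tmem145 was at 0.477 to 2.78 CPM in females and 0 to 0.271 CPM in males (12.6-fold, adjusted p = 0.0382, lost in 4 of 8 fits without 1 mouse). All were low in both sexes, without overlap. Non-coding transcripts made up part of both sides. The lincRNA Gm30551 on chromosome 13 was at 8.27, 8.90, 14.9 and 29.8 CPM in females and between 0.193 and 0.219 CPM in all 4 males (73.4-fold, adjusted p = 0.000250). The lincRNAs G630018N14Rik (log2 fold change -4.47) and Gm31369 (-3.28) were also higher in females. The lincRNAs Gm44785 (3.31) and Gm6999 (3.14) and the antisense transcript Gm45645 (3.02) were higher in males. Whether reads were counted by strand is not given in the sources used here, so reads of an antisense transcript and of its partner cannot be told apart.

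**Figure D2:**
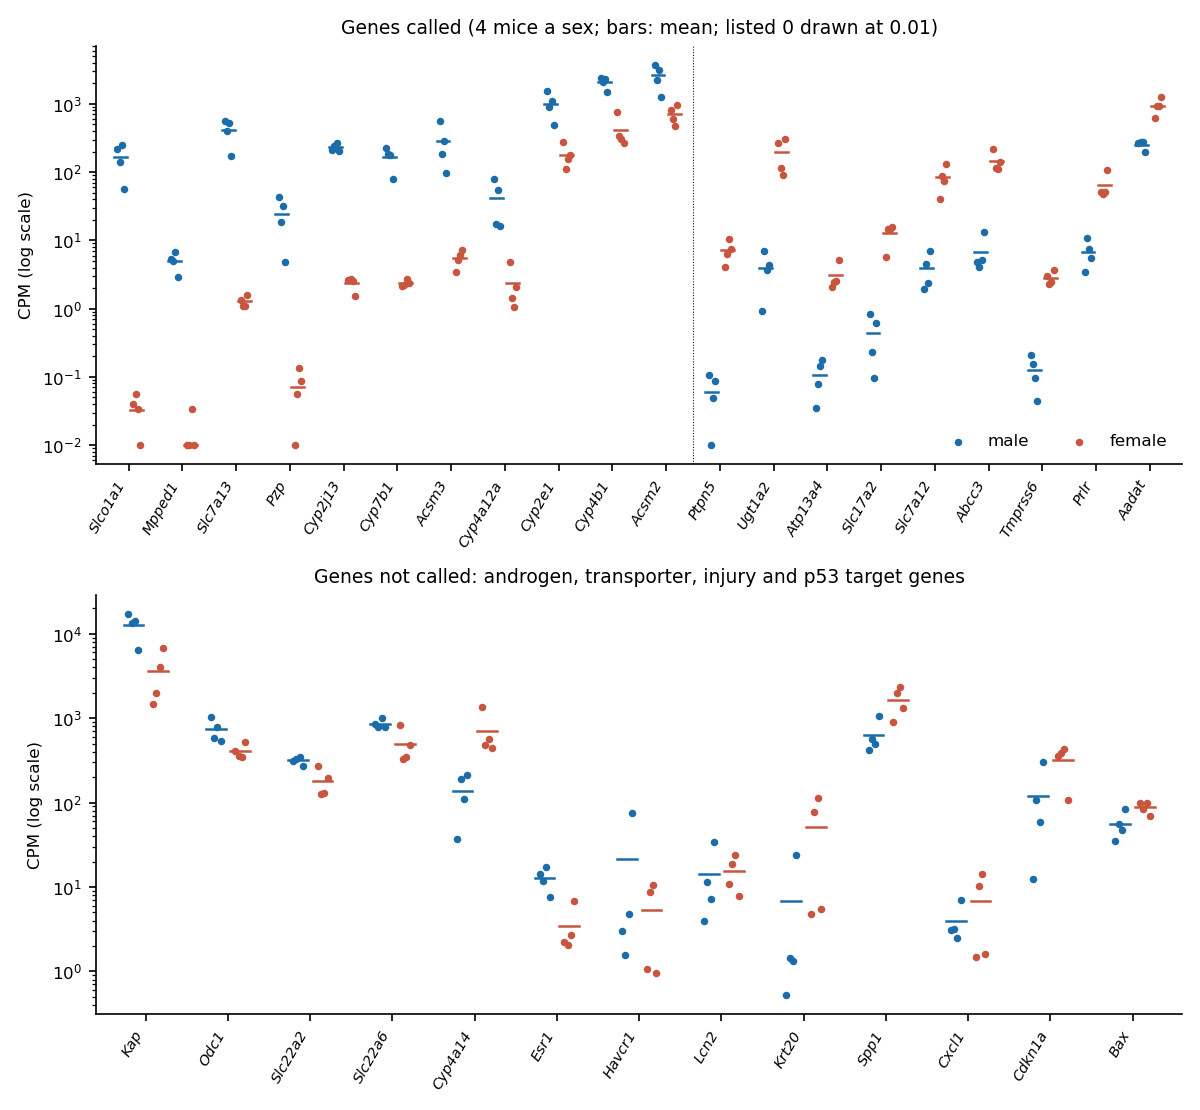
Points are CPM of single mice on a log scale, blue for males and red for females, and bars are means of 4 mice. The sexes do not overlap for any gene of the upper panel, while in the lower panel male mouse 4 carries the highest Havcr1 (75.4 CPM) and the lowest Kap (6400 CPM) of the males.

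Genes that depend on androgens in the proximal tubule were grouped in a list from general knowledge. This list, like those below, was written with earlier results of these data known. Its share called is therefore a description and no independent support. Of its 26 tested members, 12 were called (46.2%, against 0.778% of all tested genes), all higher in males, and 24 of the 26 had a log2 fold change above 0 (median 1.74, against -0.021 over all tested autosomal genes). The 12 called were Slco1a1, Slc7a13, Cyp2j13, Cyp7b1, Acsm3, Ugt2b37, Slc22a30, Cyp4a12a, Ugt2b38, Cyp2e1, Cyp4b1 and Acsm2. The count ran from 9 to 14 when 1 mouse was left out. Cyp4a12a, the androgen-regulated enzyme that makes the vasoconstrictor eicosanoid HETE from arachidonic acid, was at 78.8, 17.3, 53.9 and 16.3 CPM in males and at 4.83, 1.42, 1.06 and 2.08 CPM in females (18.1-fold, adjusted p = 0.0103). Its males fell into a high and a low pair, and its call was lost without female mouse 2 and with no filter on low counts.

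The classic androgen-responsive kidney genes Kap and Odc1 were not called by edgeR at Day 2. Kap, the kidney androgen-regulated protein and the most abundant of the list, was at 16900, 13300, 14300 and 6400 CPM in males and at 1460, 2010, 4080 and 6760 CPM in females (log2 fold change 1.84 ± 0.491 SE, adjusted p = 0.105). The overlap came from male mouse 4 and female mouse 4, and Kap was called without male mouse 4, by the DESeq2 Wald test and by limma voom. Odc1, the first enzyme of polyamine synthesis, was at 1040, 579, 791 and 532 CPM in males and at 412, 356, 346 and 525 CPM in females (1.81-fold, adjusted p = 0.130). Its values did not overlap, and it was not called without any 1 mouse, by the DESeq2 Wald test or by limma voom.

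Genes taken as higher in the female kidney formed a second list, written the same way and with the same limit. Of its 15 tested members 46.7% were called, against 0.778% of all tested genes. Of these, 6 were called as higher in females (Slc7a12, Abcc3, Prlr, Slc22a29, Hsd17b14 and Aadat), 1 was called as higher in males and the median log2 fold change was -1.44. The exception, named after its value was seen, was the organic anion transporter Slco4c1 (log2 fold change 1.90, adjusted p = 0.0316). Its call was lost in 7 of the 8 fits without 1 mouse, in 1 fit over 8 groups and with a replicate block. Cyp4a14, a fatty acid hydroxylase on this list, was at 1350, 482, 570 and 445 CPM in females and at 36.5, 188, 109 and 211 CPM in males (log2 fold change -2.37 ± 0.531 SE, adjusted p = 0.0591). The sexes did not overlap, and Cyp4a14 was called by the DESeq2 Wald test, by limma voom and without male mouse 4.

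In 3 drug-handling families the share called was 10.5% to 19.4%, against 0.778% of all tested genes. Of 38 tested Cyp2, Cyp3 and Cyp4 genes, 4 were called by edgeR, all higher in males (Cyp2j13, Cyp4a12a, Cyp2e1 and Cyp4b1). Of 42 conjugating enzymes, 3 were higher in males (Ugt2b37, Ugt2b38 and Ugt8a, which makes galactosylceramide) and 3 were higher in females (Ugt1a2, Ugt2b34 and Gsta4, which detoxifies lipid aldehydes). Of 31 Slc22 and Slco transporters, 5 were higher in males (Slco1a1, Slc22a30, Slc22a28, Slco4c1 and Slco3a1, the last named after its value was seen) and 1 in females (Slc22a29). Without male mouse 4, 6 conjugating enzymes were higher in females and 8 transporters were higher in males, and without male mouse 2, 2 Cyp genes were called as higher in females. Median log2 fold changes were -0.04 for the Cyp list and -0.36 for the conjugating enzymes, and 15 of the 31 transporters lay above 0. Slc22a2, the organic cation transporter OCT2 that takes cisplatin into tubule cells, was at 311, 331, 350 and 269 CPM in males and at 273, 125, 130 and 193 CPM in females. Its log2 fold change was 0.82 ± 0.246 SE with an adjusted p of 0.148, and female mouse 1 lay within the range of the males.

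In other metabolic lists with a called gene, the share called ran from 3.57% to 30.0%, although most of their members were not called. In lists this short, 1 called gene is enough to exceed the 0.778% of all tested genes. These lists were picked for holding a called gene, so lying above that share was fixed by the choice. Of 36 amino acid transporters Slc7a13 (higher in males) and Slc7a12 (higher in females) were called (median -0.12), and of 28 ABC transporters Abcc3 (median -0.02). Of 52 genes of fatty acid oxidation and acyl-CoA synthesis, Acsm3 and Acsm2 were called, both higher in males (median -0.12), with the call for Acsm2 lost as given above. Of 37 steroid and oxysterol genes, Cyp7b1 and Hsd3b1 were higher in males, and Hsd17b14 (4.28-fold) and Akr1c20 (5.61-fold), both steroid dehydrogenases, were higher in females (median 0.14). The count of 2 steroid genes higher in males became 7 without male mouse 4, 3 without male mouse 2 or female mouse 4, and 1 without any other mouse. Of 20 serpin and carboxylesterase genes, 5 were higher in males and only Serpina6, the corticosteroid-binding globulin, was higher in females (median 0.59). The male count of 5 ran from 3 (without male mouse 1 or female mouse 2, 3 or 4) to 6 without 1 mouse and fell to 2 with 1 fit over 8 groups, where Serpina6 was lost, and without male mouse 4, 2 were higher in females. None of 3 tested major urinary protein and lipocalin genes was called by edgeR or DESeq2, and 0 had an unadjusted p under 0.05.

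Hsd3b1, which makes progesterone and androstenedione in steroid-producing glands, is also a marker of the adrenal gland. It was at 5.39, 138, 3.96 and 2.54 CPM in males and at 0.317, 0.114, 0.206 and 0.260 CPM in females (log2 fold change 7.44 ± 1.57 SE, adjusted p = 0.0494). Adrenal markers, of which all 14 were found in males and 13 in females (Cyp11b2 at 0), summed to 36.3, 715, 26.1 and 18.3 CPM in males and 6.73 to 8.5 CPM in females, and all 8 tested markers lay above 0, with Hsd3b1 the 1 called (median log2 fold change 5.29). Without male mouse 2 the log2 fold change of Hsd3b1 was 4.17, the median of the adrenal markers was 2.30 and 4 of the 8 were called. Without male mouse 4, in a fit with its own set of tested genes, 6 adrenal markers were called. The call for Hsd3b1 was lost in 6 of the 8 fits without 1 mouse and with DESeq2 size factors, the DESeq2 Wald test, no filter, 1 fit over 8 groups and limma voom. The part of adrenal tissue in this difference was not tested.

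**Figure D3:**
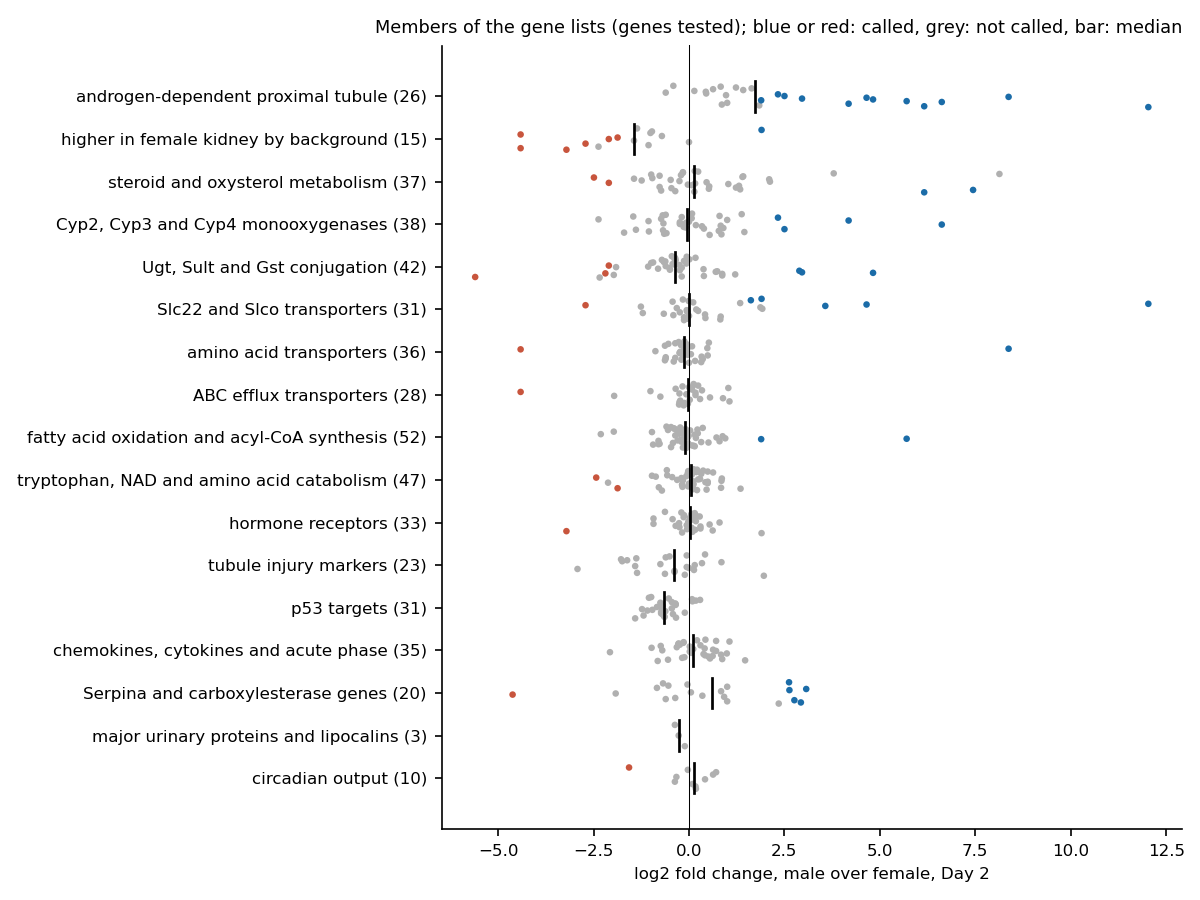
Each point is the log2 fold change of a tested member of a gene list at Day 2, coloured where called, with a bar at the list's median. Members of the androgen-dependent list lie mostly to the right (median 1.74) and p53 targets mostly to the left (median -0.65), the latter with no gene called.

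Of 33 hormone receptors tested, edgeR called Prlr (3.03%, against 0.778% of all tested genes, median 0.03). In a list this short, 1 call is enough to exceed that share. Esr1, the estrogen receptor alpha, was at 14.2, 11.8, 17.3 and 7.55 CPM in males and at 2.22, 2.05, 2.71 and 6.86 CPM in females (log2 fold change 1.90 ± 0.408 SE, adjusted p = 0.0529). Every male lay above every female, with female mouse 4 just below male mouse 4. Esr1 was called by the DESeq2 Wald test, by limma voom, with no filter, with 1 fit over 8 groups and without male mouse 4 or female mouse 4. Of 10 circadian genes (median 0.13), 1 was called, which exceeds the 0.778% of all tested genes in any list this short. The gene was Npas2, a transcription factor of the clock. It was at 3.37, 4.35, 4.11 and 2.13 CPM in females and at 1.47, 0.969, 0.774 and 1.45 CPM in males (2.96-fold, adjusted p = 0.0351), and its call was lost in 5 of the 8 fits without 1 mouse.

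Injury, DNA damage and inflammation genes depended on the test used. None of 23 tubule injury markers (median -0.38), 31 p53 targets and 35 chemokines, cytokines and acute phase genes (median 0.11) was called by edgeR. With 0.778% of all tested genes called, lists of this size would hold less than 1 called gene each, so these counts of 0 are no result about the lists. At an unadjusted p under 0.05 there were 8 injury markers (34.8%), 6 p53 targets (19.4%) and 5 of the chemokine list (14.3%), against 15% of all tested autosomal genes. The DESeq2 Wald test, which called 1.48% of all tested genes, called 2 injury markers, 0 p53 targets and 1 of the chemokine list, all higher in females. With limma voom, which called 2.13% of all tested genes, 5 injury markers (median -1.02) and 4 p53 targets (median -0.92) were called, all higher in females, and 1 chemokine list gene was higher in males and 2 in females. Havcr1 was at 3.01, 1.55, 4.83 and 75.4 CPM in males and at 1.07, 8.64, 10.6 and 0.955 CPM in females (log2 fold change 1.96 ± 1.19 SE, adjusted p = 0.482). Lcn2, the injury marker NGAL, was at 3.95, 11.3, 7.16 and 34.3 CPM in males and at 10.8, 18.6, 24.0 and 7.77 CPM in females (adjusted p = 0.951). Mice of both sexes were spread widely in both markers, with male mouse 4 the highest male and female mice 2 and 3 the highest females.

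Cdkn1a, the p53 target p21 that halts the cell cycle, was at 12.4, 106, 58.6 and 304 CPM in males and at 351, 389, 435 and 106 CPM in females (log2 fold change -1.41 ± 0.753 SE, adjusted p = 0.421). Of the 31 p53 targets 4 lay above 0, and the median was -0.65. Krt20, a keratin of injured tubules and urothelium, was at 0.525, 1.43, 1.31 and 23.8 CPM in males and at 4.79, 78.2, 114 and 5.55 CPM in females (adjusted p = 0.321). Spp1, which encodes osteopontin, was at 420, 559, 492 and 1070 CPM in males and at 898, 2000, 2330 and 1300 CPM in females (adjusted p = 0.106). Without male mouse 4, the sign of Havcr1 turned (log2 fold change -0.77), and 3 injury markers and 2 p53 targets were called, all higher in females, in a fit that called 1.49% of all tested genes. Cxcl1, a neutrophil chemokine, was at 3.08, 3.14, 2.51 and 7.02 CPM in males and at 1.5, 10.2, 14.3 and 1.61 CPM in females (adjusted p = 0.622). Cxcl12, a chemokine of stromal and endothelial cells, passed the adjusted p (0.0180) with values of 224 to 291 CPM in males and 125 to 161 CPM in females, but its 1.83-fold difference stayed under the fold threshold.

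Male mouse 4, which had the highest Havcr1, was the lowest male for 51 of the 76 genes higher in males (67.1%) and the highest for 8, while it was the lowest male for 34.5% and the highest for 40% of all tested genes. The summed level of the 76 genes was 7260 CPM in it, against 15150, 10880 and 13650 CPM in male mice 1, 2 and 3. In females the same genes summed to 1870 to 2995 CPM, and the choice of these genes sets that every male lies above every female. The 49 genes higher in females summed to 2857 to 3748 CPM in females and to 493.3, 637.3, 560.3 and 801.9 CPM in males. Male mouse 4 was the highest male for 21 of the 49, near its 40% over all tested genes. Proximal tubule markers of the S1 and S2 segments summed to 7130 CPM in male mouse 4 and to 9610 to 11200 CPM in the other males, and leaving this mouse out raised the count of genes called to 246, with 119 of the 125 kept. The part of injury in these values was not tested.

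None of 12 markers of the S1 and S2 segments of the proximal tubule was called by edgeR or DESeq2 (1 at an unadjusted p under 0.05), and their sums overlapped between males (7130 to 11200 CPM) and females (4990 to 13200 CPM). Of 12 markers of the S3 segment, 33.3% were called, against 0.778% of all tested genes, 3 as higher in males (Slc7a13, Atp11a and Slc5a8, a monocarboxylate transporter) and 1 as higher in females (Slc7a12). The count of 3 fell to 1 without male mouse 1 and with a replicate block, and the call for Slc5a8 was lost in 5 of the 8 fits without 1 mouse. No marker of the thick ascending limb (3 of 8 at an unadjusted p under 0.05), the distal tubule and collecting duct (5 of 14), podocytes (3 of 8), endothelium (4 of 8) or leukocytes (4 of 11) was called by edgeR or DESeq2. The shares at an unadjusted p under 0.05 were 35.7% to 50.0% in these lists, against 15% of all tested genes, and at 0.778% called, lists this short would hold less than 1 called gene, so no call is no result about them. No gene was called for fat (3 of 13), exocrine pancreas (0 of 1), erythroid (1 of 6), male reproductive tract (0 of 2), ovary, oviduct and uterus (1 of 6) and urothelium (1 of 9) either, while of 8 hepatocyte markers (4 at an unadjusted p under 0.05) edgeR called 0 and DESeq2 called 1. All 8 podocyte markers lay below 0 (median -0.34) and all 8 endothelial markers above 0 (median 0.47), and the leukocyte markers had a median of 0.72.

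In several places the called genes were close neighbours, and some neighbours went opposite ways. On chromosome 19, between 8062209 and 8405111, lie the organic anion transporter genes Slc22a28, Slc22a29 and Slc22a30, and all 3 were called. Slc22a28 was at 98.7, 76.3, 87.7 and 32.6 CPM in males and at 6.25, 3.30, 2.88 and 13 CPM in females (11.9-fold, adjusted p = 0.00762). Its call was lost with no filter on low counts. Slc22a30 was at 117, 101, 144 and 43.5 CPM in males and at 3.44, 2.02, 3.81 and 7.20 CPM in females (25.2-fold, adjusted p = 0.000715). Slc22a29, which lies between them, was at 3.57, 9.07, 5.27 and 3.73 CPM in males and at 20.4, 33.8, 29.0 and 59.4 CPM in females (6.53-fold the other way, adjusted p = 0.00763). The same split was seen on chromosome 5 among genes that glucuronidate steroids and drugs. Ugt2b34 was at 14.4, 19.8, 19.5 and 19.7 CPM in males and at 53.3, 98.6, 104 and 80.1 CPM in females (4.55-fold higher in females, adjusted p = 0.000741). Ugt2b37 was at 64.8, 54.3, 87.1 and 12.8 CPM in males and at 1.03, 2.42, 2.43 and 1.87 CPM in females (28.2-fold, adjusted p = 0.00173). Ugt2b38 was at 751, 387, 658 and 146 CPM in males and at 41.1, 58.7, 55.3 and 96.6 CPM in females (7.79-fold, adjusted p = 0.0137). The call for Ugt2b38 was lost without female mouse 2, without female mouse 3 and with a replicate block. In this stretch 3 of 8 tested genes were called.

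The promoter windows of these neighbours are shown so that the neighbours that went the same way can be set beside the 1 that did not (RefSeq, GRCm38.p6, 250 bases before to 50 after the start, read 5′ to 3′). In the Slc22a set, capitals mark bases that differ from the Slc22a30 window or have no partner in it.
Slc22a28, chr19:8131933-8132232, minus strand: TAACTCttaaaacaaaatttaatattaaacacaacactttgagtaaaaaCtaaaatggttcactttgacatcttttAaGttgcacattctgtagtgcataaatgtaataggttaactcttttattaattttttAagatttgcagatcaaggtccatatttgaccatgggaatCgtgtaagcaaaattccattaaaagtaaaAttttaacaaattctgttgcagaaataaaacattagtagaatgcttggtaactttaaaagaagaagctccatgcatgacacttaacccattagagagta
Slc22a30, chr19:8405056-8405355, minus strand: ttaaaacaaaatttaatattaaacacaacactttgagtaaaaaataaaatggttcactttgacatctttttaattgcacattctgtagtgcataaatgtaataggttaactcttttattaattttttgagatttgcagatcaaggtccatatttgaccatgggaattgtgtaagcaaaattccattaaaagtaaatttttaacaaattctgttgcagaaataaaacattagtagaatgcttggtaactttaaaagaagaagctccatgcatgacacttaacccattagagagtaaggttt
Slc22a29, chr19:8218851-8219150, minus strand: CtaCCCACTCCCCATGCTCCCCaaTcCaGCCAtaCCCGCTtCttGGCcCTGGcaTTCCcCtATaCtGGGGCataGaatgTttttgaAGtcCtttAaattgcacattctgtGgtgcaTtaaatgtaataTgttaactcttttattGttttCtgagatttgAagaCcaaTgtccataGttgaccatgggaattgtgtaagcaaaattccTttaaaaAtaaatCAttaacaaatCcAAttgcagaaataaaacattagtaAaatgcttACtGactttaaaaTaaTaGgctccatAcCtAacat
The windows of Slc22a28 and Slc22a30, both higher in males, were identical at 98.0% of 294 aligned bases. That of Slc22a29, higher in females, was identical at 79.3% of 271 bases aligned with Slc22a30. In the Ugt2b set, capitals mark bases that differ from the Ugt2b37 window or have no partner in it.
Ugt2b37, chr5:87254739-87255038, minus strand: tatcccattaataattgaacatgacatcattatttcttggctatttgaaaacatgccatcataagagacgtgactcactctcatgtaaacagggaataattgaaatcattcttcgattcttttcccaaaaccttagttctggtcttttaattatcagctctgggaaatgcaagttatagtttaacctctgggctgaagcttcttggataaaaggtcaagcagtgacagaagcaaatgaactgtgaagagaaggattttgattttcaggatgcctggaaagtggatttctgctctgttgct
Ugt2b38, chr5:87424154-87424453, minus strand: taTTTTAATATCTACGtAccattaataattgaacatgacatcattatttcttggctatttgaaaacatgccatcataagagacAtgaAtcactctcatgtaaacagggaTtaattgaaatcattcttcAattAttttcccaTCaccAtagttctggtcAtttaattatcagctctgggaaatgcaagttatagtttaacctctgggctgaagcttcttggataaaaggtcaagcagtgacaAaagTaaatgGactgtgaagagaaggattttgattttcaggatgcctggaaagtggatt
Ugt2b34, chr5:86906888-86907187, minus strand: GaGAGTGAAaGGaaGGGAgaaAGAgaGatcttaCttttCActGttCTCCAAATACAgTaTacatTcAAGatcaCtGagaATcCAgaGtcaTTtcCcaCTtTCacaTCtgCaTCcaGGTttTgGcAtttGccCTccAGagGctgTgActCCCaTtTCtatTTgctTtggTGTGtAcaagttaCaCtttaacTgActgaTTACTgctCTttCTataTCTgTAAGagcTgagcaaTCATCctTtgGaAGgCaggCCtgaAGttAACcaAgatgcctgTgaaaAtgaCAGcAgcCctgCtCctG
Here the windows of the male-higher pair were identical at 95.5% of 286 aligned bases, and Ugt2b34 and Ugt2b37 at 60.7% of 272. The 9 pairs between the families gave 57.8% to 66.1%, and the value for Ugt2b34 lies within that range. Near-identical copies can share reads, and how the counting split these was not given in the sources used here, so the levels of single members are uncertain.

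Of the 125 genes, 91 had a promoter window in the reference. The letters AGAACA or their reverse complement, a half-site of the androgen and glucocorticoid receptors, stood in 15 of 76 windows of genes higher in males (19.7%), in 8 of 40 windows of genes higher in females (20%), in 12.9% of the windows of all tested autosomal genes and in 19% of all autosomal windows. The letters GTTAAT or their reverse complement, a half-site of the tubule and liver factor HNF1, stood in 13 of 76 windows of genes higher in males (17.1%), in 3 of 40 of genes higher in females (7.5%), in 4.96% of the windows of tested genes and in 7.12% of all autosomal windows. Each motif was counted by itself, a gene can have several windows, and a match is a description of the letters only.

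Another cluster with both directions lies on chromosome 12, between 103646630 and 103830373. Serpina6 was at 1.23, 0.825, 1.71 and 2.86 CPM in females and had 6 counts over the males (ratio of means 27.0, counting interval 12.4 to 73.7). Its neighbours Serpina1b and Serpina1d, which encode protease inhibitors of the alpha-1-antitrypsin family, were higher in males by 7.64-fold and 6.78-fold. Serpina1d was at 62.0, 116, 122 and 60.1 CPM in males and at 16.8, 11.2, 12.6 and 13.2 CPM in females (adjusted p = 0.000681). The other 3 clusters went 1 way each. Ces1f, Ces1g and the pseudogene Gm45727 on chromosome 8 were higher in males and were the only 3 genes tested there, and the call was lost in 6 of 8 fits without 1 mouse for Gm45727, in 4 for Ces1g and in 0 for Ces1f. Gm6999, Gm49542 and Olfm4, a secreted glycoprotein, on chromosome 14 were higher in males, and Gm6999 overlaps both of the others in position on the same strand. The call was lost in 6 of 8 fits without 1 mouse for Gm6999, in 5 for Olfm4 and in 2 for Gm49542. Gcm1, a transcription factor, Gsta4 and Gm10639 on chromosome 9 were higher in females, 3 of 9 tested. Without 1 mouse, the call was lost in 7 of 8 fits for Gcm1 and in 5 of 8 for Gsta4 and for Gm10639. Gsta4 was at 239, 152, 178 and 191 CPM in females and at 24.3, 33.2, 30.7 and 88.5 CPM in males (4.28-fold, adjusted p = 0.0225). By chromosome, the share called ran from 0 of 787 tested genes on chromosome 17 to 1.55% on chromosome 12. All 6 genes called on chromosome 13 and all 4 on chromosome 16 were higher in females, and all 4 on chromosome 6 and both on chromosome 18 were higher in males.

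**Figure D4:**
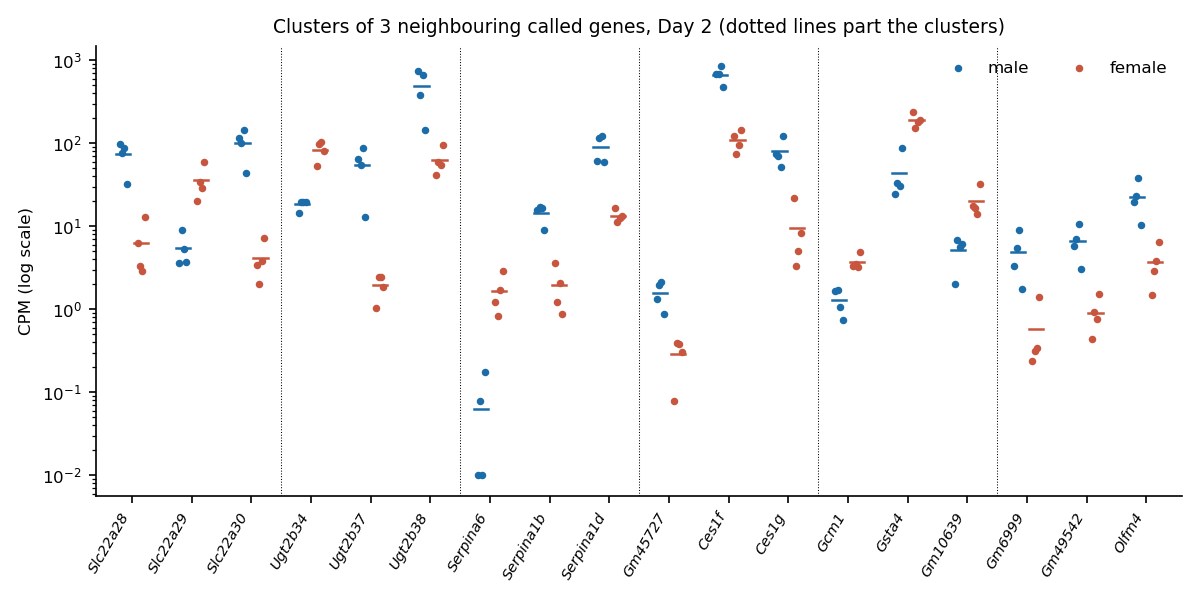
Points are CPM of single mice on a log scale for the 6 clusters of 3 called neighbours, blue for males and red for females, with bars at the means and 0 drawn at 0.01. In the first 3 clusters 1 gene lies the other way from its neighbours (Slc22a29, Ugt2b34 and Serpina6).

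The same comparison was made in other mice at Day 3 and at Day 0. At Day 3, 306 of 16119 autosomal genes were called (1.90%), 139 higher in males and 167 higher in females, and 3402 passed the adjusted p alone (21.1%). Without female mouse 2 of Day 3 the count was 504. Of the 125 genes of Day 2, 93 were also called at Day 3, all in the same direction, which is 74.4% of the Day 2 genes and 30.4% of those of Day 3. Of the 123 that could be tested, 120 had the same sign. The 3 exceptions were Npas2, Hsd3b1 and Kcnma1, a potassium channel named after its value was seen. Slco1a1 at Day 3 was at 155, 273, 218 and 236 CPM in males and at 0 to 0.187 CPM in females (log2 fold change 11.46). Among genes called at Day 2 and not at Day 3 were Apoh (log2 fold change 5.87 at Day 2 and 0.98 at Day 3) and Serpina1b (2.93 and 0.77).

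At Day 0, 57 of 15514 autosomal genes were called (0.367%), 27 higher in males and 30 higher in females, and 71 passed the adjusted p alone (0.458%). Of the 125 genes of Day 2, 25 were also called at Day 0, all in the same direction (20% of the Day 2 genes, 43.9% of those of Day 0), and 108 of 116 tested had the same sign. The Day 0 libraries stood apart in their sex checks: the females had 5 to 221 counts of the Y-linked genes, where Day 2 females had 0, and the males had 0 to 242 counts of Xist. Slco1a1 at Day 0 was at 546, 467, 395 and 219 CPM in males and at 37.8, 9.39, 0 and 5.78 CPM in females (log2 fold change 4.94, adjusted p = 0.202). The Y-linked counts of these 4 females were 221, 5, 44 and 66. Apoh, Serpina1b and Serpina1d had the opposite sign at Day 0, and there female mouse 2 was at 356, 566 and 317 CPM for them, above every other Day 0 mouse. Leaving out 1 Day 0 mouse gave from 0 to 68 genes, with 0 without male mouse 1, female mouse 2 or female mouse 3, 2 without male mouse 2, 12 without male mouse 3 and 17 without female mouse 1.

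Some of the named genes were called on all 3 days. Prlr was called at Day 0 (log2 fold change -4.26), Day 2 (-3.21) and Day 3 (-2.55), Slc7a12 had values of -5.26, -4.41 and -5.10, and Abcc3 had -4.09, -4.41 and -4.06. Cyp4b1 (3.53, 2.33 and 2.54) and Ces1f (2.76, 2.63 and 2.82) were called as higher in males on each day. Whether the sex difference itself changed between days was tested as an interaction. With edgeR, 0 of 16892 genes passed between Day 2 and Day 0 (0%), and 707 had an unadjusted p under 0.05 (4.19%). Between Day 2 and Day 3, 0 of 16942 passed (0%), and 767 had an unadjusted p under 0.05 (4.53%). The DESeq2 Wald test called 17 and 56 genes. The smallest adjusted p by edgeR was 0.151 against Day 0, shared by Npas2 and 3 others, and 0.302 against Day 3. For Npas2 the difference of log2 fold changes was -3.13 ± 0.535 SE against Day 0, where its males were at 11.9 to 27.6 CPM and its females at 4.31 to 12.2 CPM.

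**Figure D5:**
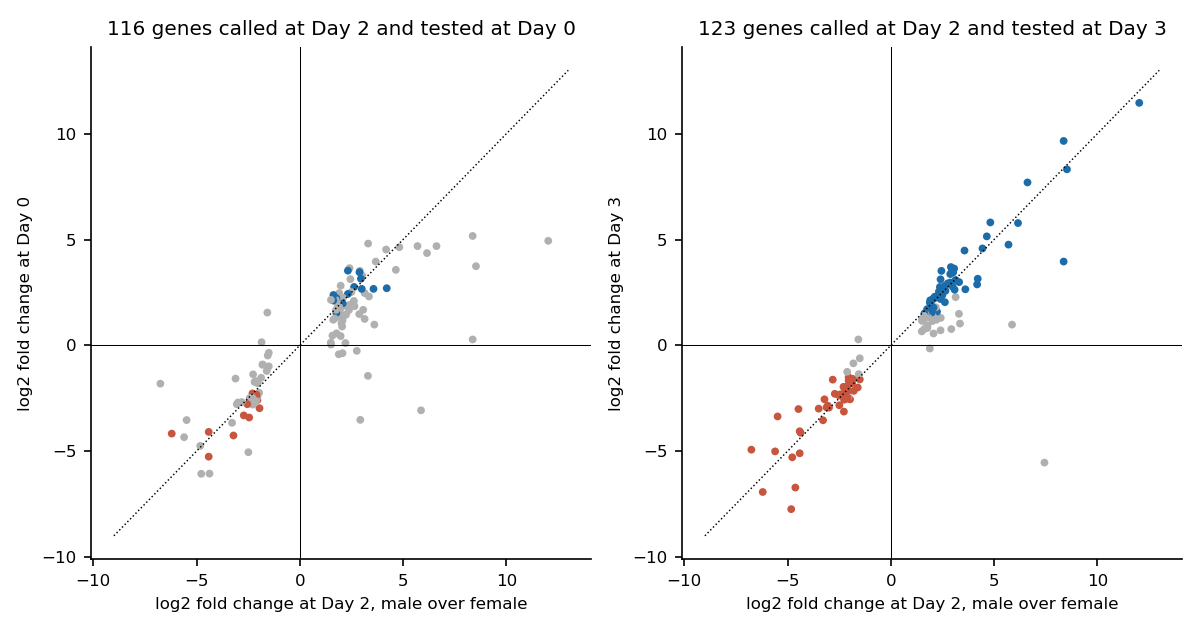
Each point is a gene called at Day 2, with its Day 2 log2 fold change on the x axis and that of Day 0 (left, 116 genes) or Day 3 (right, 123 genes) on the y axis, coloured where also called that day and grey elsewhere. At Day 3 the points follow the dotted line of equal values with Hsd3b1 far below it, and at Day 0 they spread more widely.

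Just inside the fold threshold were Gm19541 (log2 fold change -1.5), Piezo2 (1.5) and Gcm1 (-1.5), and just outside, with an adjusted p under 0.05, were Gsap, Ltbp1 and Acy3 (1.49 each).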

How the data were processed

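Gene counts (whole reads, not normalized) were deposited by the authors for 32 libraries, 1 mouse each. The 24 libraries of Day 0, Day 2 and Day 3 were used, and all 32 in 1 alternative. FPKM values, which the authors also deposited, scale counts by gene length and library size and served only for levels between genes. The study states GRCm38, which the gene positions in the files match, while the submitters' processing notes name GRCm39, HTSeq and DESeq2. The aligner and strandedness are not given in the sources used here. Day 2 libraries held 19876957 to 29980960 counts, and no pair had identical counts (0 of 28). Mice are separate animals by their labels.

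Sexes were compared within a day with edgeR 4.0.16 in R 4.3.3 (TMM, filterByExpr, robust quasi-likelihood test) over all genes, with Benjamini-Hochberg adjustment. A prior count of 2 entered only the log2 CPM behind the correlations of same-numbered mice. Each day interaction used 16 libraries. CPM used TMM factors over 24 libraries. Counting intervals (95%, exact Poisson) were given where a group had 12 counts or fewer in all, and they cover counting error only. Alternatives were DESeq2 1.42.0, its size factors in edgeR, limma 3.58.1 voom, no filter, at least 10 counts in every library, autosomal genes alone, a fold threshold of 1 (log2), 1 fit over 8 groups, a replicate block and each mouse left out. The tests were checked on simulated counts.

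The members and lists were chosen with earlier results of these data known. Genes named were, among Day 2 calls, the 12 largest protein-coding differences each way, up to 4 per list (otherwise its smallest p), the 8 with the highest CPM, the 3 largest non-coding each way and clusters of 3 or more with starts within 500 kb, with sex checks and a fixed set of kidney genes, of which an X-linked one was left out. Other genes are said to have been named after their values were seen. Results for a few items are not reported here.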

Additional observations from a re-analysis of the deposited data

Results flagged for a closer look

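Among 202 groups of 4 mice tested for the named genes and marker sums, 18 had 1 mouse far from the other 3 by Dixon's criterion at the 95% level (on log2 of CPM plus 0.1), where chance gives about 1 in 20. Male mouse 4 accounted for 5 of them. Aadat was at 194 CPM in it (270 to 275 in the other males), Serpina1b at 8.99 CPM (15.6 to 17.2) and Scnn1g, a subunit of the epithelial sodium channel, at 43.7 CPM (26.6 to 28.9). Its thick ascending limb markers summed to 2140 CPM (3110 to 3240) and its urothelial markers to 160 CPM (46.5 to 47.9).

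Female mouse 4 had the highest Prlr, 106 CPM (47.4 to 51.6 in the other females), the lowest Cdkn1a, also 106 CPM (351 to 435), and the lowest Cyp2j13, 1.52 CPM (2.50 to 2.76). Female mouse 1 was lowest for Slc17a2 at 5.70 CPM (14.6 to 15.8), for G630018N14Rik at 0.475 CPM (1.43 to 1.54) and for the adrenal markers at 6.73 CPM in sum (8.19 to 8.5). Male mouse 1 was lowest for Cldn16, a tight junction protein of the thick ascending limb, at 5.35 CPM (8.56 to 9.08), for Ugt2b34 at 14.4 CPM (19.5 to 19.8) and for Gm10639 at 1.99 CPM (5.66 to 6.82). Cldn16 was highest in female mouse 3 at 14.9 CPM (12.8 to 13.1). Female mouse 2 was lowest for Gm45645 at 0.114 CPM (0.514 to 0.651).

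The remaining 2 rest on a few counts. Myh1 was at 0.155 CPM in male mouse 2 (0.0350 to 0.0483 in the other males), and Mpped1 was at 0.0343 CPM in female mouse 3 and 0 in the other females.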

How the results depend on the processing

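None of the 125 genes called at Day 2 changed sign under a Day 2 setting that tested it, and 66 of the 125 (36 higher in males, 30 in females) were called in all 8 fits that left out 1 mouse. The Day 2 count of 125 became 237 with the DESeq2 Wald test (124 of the 125 kept), 342 with limma voom (119 kept), 83 with 1 fit over 8 groups (74 kept) and 82 with at least 10 counts in every library, where 39 of the 125 were not tested. Without 1 mouse it ran from 72 to 246. Without both male mouse 4 and female mouse 1, left out together after seeing the injury markers of the first and the mitochondrial share of the second, it was 265. The share higher in males among the genes called, 60.8%, was 61.0% with DESeq2 size factors and ran from 54.2% (without female mouse 3) to 67.5% (1 fit over 8 groups).

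The Day 0 count of 57 became 190 with DESeq2, 249 with 1 fit over 8 groups and 116 with a replicate block, and ran from 0 to 68 without 1 mouse. The Day 3 count of 306 became 121 with 1 fit over 8 groups and ran from 250 to 504. The interaction count of 0 became 17 with DESeq2, 4 with 1 fit over 8 groups and 0 to 1 without 1 mouse for Day 0, and 56 with DESeq2 and 1 with no filter for Day 3. The cause of these shifts was not tested.

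The log2 fold change of Havcr1 (1.96) turned to -1.02 with limma voom, -0.77 without male mouse 4 and -1.11 without male mouse 4 and female mouse 1, and was 2.53 without female mouse 3. That of Lcn2 (-0.11) turned to 0.20 without male mouse 1, 0.10 without male mouse 3 and 0.19 without female mouse 3, and was -1.16 without male mouse 4 and female mouse 1. Same-numbered males and females did not deviate together (correlations -0.191, 0.0981, 0.0496 and -0.479), so the mouse number pairs nothing here. With the number as a replicate block, 104 Day 2 genes were called, 92 of them among the 125.

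With 4 mice a sex, p-values depend on the spread of single mice. Genes under about 1 CPM rest on few counts, and near-identical family members can share reads.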

Other observations

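Some genes called at Day 2 were about as high in male mouse 4 as in the other males. All genes of this part were named after their values were seen. Fmo5, a flavin monooxygenase, was at 113, 116, 114 and 121 CPM in males and at 25.7, 22.3, 22.2 and 22.7 CPM in females (5.04-fold, edgeR adjusted p = 5.44e-06). Chst11, which sulfates chondroitin, was at 63.6, 67.4, 77.8 and 72.5 CPM in males and at 9.03, 8.25, 7.85 and 10.4 CPM in females (7.99-fold, adjusted p = 5.44e-06). Adh1, an alcohol and retinol dehydrogenase, was at 384, 391, 397 and 379 CPM in males and at 136, 74.2, 79.8 and 97.6 CPM in females (4.05-fold, adjusted p = 0.000681). For these 3 genes male mouse 4 lay within or next to the range of the other males.

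Timd2, a receptor for ferritin, was at 47.0, 22.7, 28.4 and 32.9 CPM in males and at 1.94, 1.59, 1.47 and 2.17 CPM in females (18.5-fold, adjusted p = 1.62e-05). Foxq1, a forkhead transcription factor, was higher in females, at 70.2, 65.1, 71.4 and 101 CPM against 13.7, 20, 16 and 24.6 CPM in males (4.12-fold, adjusted p = 0.000878). At Day 3 the log2 fold changes were 2.27 for Fmo5, 2.77 for Chst11, 3.15 for Timd2 and -1.67 for Foxq1, each with an adjusted p under 0.05. That of Adh1 was 1.15 at Day 3, with an adjusted p of 0.105.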
